A study of Mus musculus with 8 samples.

Results

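The genes described here are those of the cytosolic ribosome, measured by RNA sequencing in mouse neutrophils. They were taken by symbol from the deposited count table: Rpl or Rps followed by a digit, together with Rplp0, Rplp1, Rplp2 and Rpsa, without the Rps6k kinases and symbols that carry -ps. The rule took 88 of the 24421 gene symbols in the table, and 84 of these were seen with 1 count or more in 2 libraries or more, the minimum that 12254 genes passed. Of the 84, 50 carried large subunit symbols (Rpl) and 34 small subunit symbols (Rps). The remaining 4 symbols (Rpl10l, Rpl26, Rpl30 and Rps27rt) were listed at 0 counts in all 8 libraries. One symbol taken by the rule, Rps19bp1, belongs to a nucleolar protein that binds Rps19 and is not a ribosomal protein.

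A ribosome is built of a small subunit, which reads the mRNA, and a large subunit, which joins the amino acids, and each holds its own set of proteins around the ribosomal RNA. The genes of these proteins are transcribed in every cell, and their mRNAs typically start with a C followed by a run of pyrimidines, a terminal oligopyrimidine (TOP) start, through which growth signals set how much of them is translated. Neutrophils are made in the bone marrow from dividing precursors that are rich in ribosomes, and ribosomal content falls as they mature.

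Neutrophils were isolated with magnetic beads from the bone marrow of female C57BL/6 mice aged 8 weeks, either wild type (WT) or Padi4 knockout (KO). Padi4 encodes peptidylarginine deiminase 4, which converts arginine in histones and other proteins to citrulline, and the KO mice lack exon 1 of the gene. Cells of each genotype were left unstimulated or were given R848, a synthetic TLR7 agonist, at 1 µg/ml for 6 h. Each of the 4 groups held 2 libraries. The titles of the unstimulated libraries give 0 h and the treatment protocol 6 h, so that the R848 comparisons may also hold the effect of 6 h in culture. The labels do not say whether the 2 libraries of a group came from separate mice. The study's methods say only that each sample was run in duplicate. The p-values measure only the spread between these 2 libraries, which may not hold the spread between mice.

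Libraries held 562446 to 1177972 counts on genes. Padi4 had 590 and 527 counts in the unstimulated WT libraries and 166 and 234 in the WT libraries after R848, against 40 and 54 in the unstimulated KO libraries and 34 and 21 after R848. The counts are summed over the gene and do not separate exon 1 from the rest. The neutrophil markers made up most of the marker counts in every library. However, 10 of 11 were lower in KO than in WT without stimulation and 9 of 11 after R848. The shares of all genes tested were 14.4% and 7.81%. The summed level of erythroid markers was 29.9 to 109 CPM (counts scaled to the library's total) in the 4 WT libraries and 976 to 1274 CPM in the 4 KO libraries, and that of monocyte markers was 460 to 990 CPM in WT and 1168 to 1352 CPM in KO. In such bulk samples, fewer cells of a type and less RNA per cell cannot be told apart.

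The start of the mRNA was available from RefSeq promoter windows (GRCm38.p6) for 64 of the 84 genes. In 13 of the 64 (20.3%), the annotated first base was a C followed by at least 4 pyrimidines, against 3.01% of all 27025 windows and 3.01% of those of tested genes. The following 6 are shown because they span the range of tract lengths and include genes described below. Each runs from 10 bases before the annotated start to 20 bases into the transcript, 5′ to 3′ on the gene's strand, and capitals mark the pyrimidine tract that opens the transcript.
Rpl15 (chr14:18270967-18270996, minus strand): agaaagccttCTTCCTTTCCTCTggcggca
Rpl35 (chr2:39005112-39005141, minus strand): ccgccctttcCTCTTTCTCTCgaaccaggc
Rps10 (chr17:27635225-27635254, minus strand): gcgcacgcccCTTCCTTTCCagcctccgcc
Rps6 (chr4:86857348-86857377, minus strand): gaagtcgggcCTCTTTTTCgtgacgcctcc
Rpl14 (chr9:120571507-120571536, plus strand): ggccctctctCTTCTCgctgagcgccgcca
Rplp2 (chr7:141447641-141447670, plus strand): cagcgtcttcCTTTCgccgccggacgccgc

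The tract was 13 bases long in Rpl15, 11 in Rpl35 and 5 in Rplp2. A window in which the annotated start is a few bases off the true start does not show the tract, so that 13 of 64 counts annotated starts and not TOP mRNAs. Within the same windows, from 250 bases before to 50 bases after the start and on both strands, the letters CCGGAAG, which hold the core that ETS family factors such as GABP bind, were present in 25 of 64 genes (39.1%), against 9.93% of all windows and 20.4% of those of tested genes. AAGATGG, the core of the motif of YY1, was present in 10 of 64 (15.6% against 7.28% and 8.61%), and CACGTG, the E-box bound by Myc, in 6 of 64 (9.38% against 8.09% and 11.7%). GGGCGG, bound by Sp1, was present in 40 (62.5% against 38.2% and 67.6%), and TATAAA in 7 (10.9% against 15.7% and 8.49%). In unstimulated cells, the median log2 difference of KO from WT was 0.68 in the 23 members with CCGGAAG and at least 10 counts on average and 0.68 in the 35 without it. It was 0.57 in the 12 with a pyrimidine start and 0.70 in the 46 without. After R848 the medians were 0.90 with and 0.74 without CCGGAAG, and 0.85 with and 0.82 without a pyrimidine start.

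Levels of different genes were compared per length, as RPKM, here the CPM scaled by TMM (trimmed mean of M values, the scaling of edgeR between libraries) and divided by the transcript length in kilobases. Among 77 members of 10 or more counts on average (46 large and 31 small subunit), the mean over the 4 groups had a median of 250 RPKM. Rps9, a small subunit protein at the mRNA entry site, was the highest at 926 RPKM. It was followed by Rplp1, an acidic protein of the stalk on the large subunit, at 649 RPKM, Rps12 at 525 RPKM, Rpl23a at 511 RPKM and Rps24 at 510 RPKM. The order depended on the group: Rps9 had 921 RPKM and Rplp1 425 RPKM in unstimulated WT cells, while in unstimulated KO cells the levels were 973 and 998 RPKM. These levels rest on annotated lengths, and members with long annotated transcripts, such as Rps15a, come out low.

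Paralogs, second gene copies that encode a variant of a ribosomal protein, differed in level. Rpl36al had a mean of 65.1 RPKM against 143 RPKM for Rpl36a, whereas Rpl22l1 had 57.9 RPKM against 40.4 RPKM for Rpl22. Rpl3l, the striated muscle paralog of Rpl3, was found with 1 to 6 counts per library, Rpl39l, the testis paralog of Rpl39, with 0 or 1, and Rpl10l, which replaces Rpl10 in male germ cells, with 0. Rpl7l1, a relative of Rpl7 with a part in ribosome assembly, had 30.8 RPKM against 294 RPKM for Rpl7. The 2 members Rps27 and Rpl34, which belong to every ribosome, were nevertheless found with 0 to 4 and 0 to 2 counts per library, and Rpl26 and Rpl30 were listed at 0. Of all 50-base words of the Rps27 transcripts, 98.6% also occurred in transcripts of other genes, and the share was 71.3% for Rpl26, 79.2% for Rpl30 and 37.9% for Rpl34. The share of Rpl10 was 92.1% and its counts were 148 to 538 per library. Rps27, Rpl34, Rpl26 and Rpl30 are not described further.

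The first question was how much of the neutrophil transcriptome these genes made up in each group. Summed over the 84 members, they accounted for 1.52% and 1.40% of gene counts in the unstimulated WT libraries and for 0.924% and 0.991% in the WT libraries after R848. In KO neutrophils, the shares were 2.84% and 2.80% without stimulation and 1.99% and 1.90% after R848. The exact (Clopper-Pearson) 95% binomial intervals, which cover counting error only, were at most 0.0770 percentage points wide. The groups did not overlap: every KO library was above every WT library, and within each genotype both R848 libraries were below both unstimulated libraries. The group means were 1.46% ± 0.0877 in unstimulated WT, 0.958% ± 0.0470 in WT after R848, 2.82% ± 0.0280 in unstimulated KO and 1.95% ± 0.0635 in KO after R848 (SD, n = 2 each). The share was therefore 1.93-fold higher in KO than in WT without stimulation and 2.03-fold higher after R848, and R848 left 0.655 of the share in WT and 0.691 in KO. These ratios hold no scaling between libraries. With TMM scaling, the members' median log2 change was -0.30 for R848 in WT and -0.15 in KO. For KO minus WT it was 0.63 without stimulation and 0.82 after R848. With 2 libraries against 2, the exact two-sided permutation test gave p = 0.333 for each of the 4 comparisons (adjusted over them, 0.333), which is the smallest p this design allows.

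**Figure D1:**
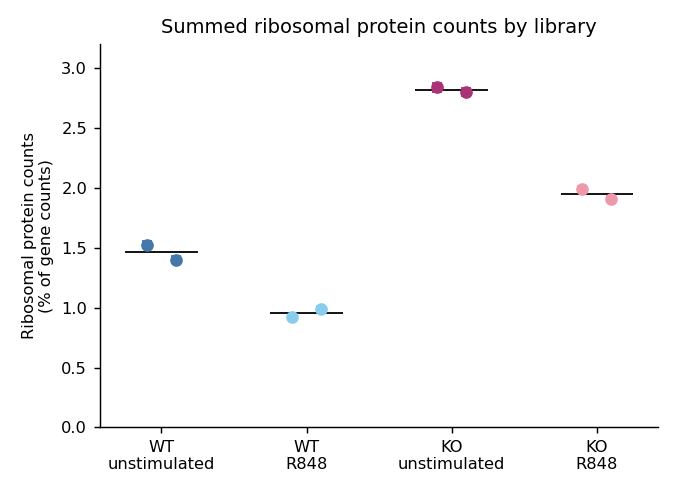
Summed counts of the 84 ribosomal protein genes as a percentage of all gene counts, for each library by group (points, with exact 95% binomial intervals) and the mean of each group (line). The 4 KO libraries lie between 1.90% and 2.84%, all above the WT libraries, which lie between 0.924% and 1.52%.

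The difference was found in both subunits. Large subunit genes made up 0.814% ± 0.0436 of gene counts in unstimulated WT and 1.60% ± 0.0109 in unstimulated KO, and small subunit genes 0.648% ± 0.0441 and 1.22% ± 0.0171 (SD, n = 2). After R848, large subunit genes made up 0.530% ± 0.0187 in WT and 1.10% ± 0.0308 in KO, and small subunit genes 0.428% ± 0.0284 and 0.843% ± 0.0327. Neither subunit overlapped between WT and KO in any condition.

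Comparison of unstimulated KO with unstimulated WT neutrophils, gene by gene, showed the same direction in nearly every member. By the quasi-likelihood test of edgeR, with p-values adjusted (Benjamini-Hochberg) over all 12254 genes, 65 of 84 members were higher in KO at a false discovery rate (FDR) below 0.1 and 1 was lower, against 9.55% and 14.4% of all genes tested. Of the 84, 71 were higher without overlap between the groups' CPM, against 25.3% of all genes. Of the 84, 81 had a log2 difference above 0, against 46.9% of all genes, and so did all 77 with at least 10 counts on average (called adequate counts from here on), with a median of 0.68, and the median of the other 6835 genes of that level was -0.17. Among 349 other genes with transcripts of at most 1000 bases, the size of most ribosomal protein mRNAs, it was -0.080. The medians of large and small subunit genes were 0.66 and 0.68. The level of all genes moved with the scaling: the split of all calls, 1170 higher and 1763 lower in the main analysis, was 1522 and 1070 with TMM factors taken without the members and 1901 and 561 with library size alone, and the median of all genes ran from -0.17 to 0.12 over 26 settings. The median of the 84 members lay above that of all genes in each of them, by 0.76 to 0.84.

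Rplp0 and Rplp1, of the ribosomal stalk and its base, were among the clearest. Rplp0, on which the stalk is built, had 338 and 253 counts (523 and 437 CPM) in the unstimulated WT libraries and 852 and 1214 counts (963 and 881 CPM) in the KO libraries. The groups lay far apart, and Rplp0 was 0.93 ± 0.09 higher in KO on the log2 scale (SE, edgeR adjusted p = 2.09e-23). Rplp1, carried by the stalk, had 209 and 216 CPM in WT and 512 and 484 CPM in KO, a difference of 1.23 ± 0.11 (edgeR adjusted p = 9.08e-26). Its partner Rplp2 was 0.46 ± 0.13 higher (edgeR adjusted p = 0.00347), the smallest difference of the stalk genes and below the members' median of 0.68.

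Among small subunit genes, Rps2, a protein of the mRNA entry channel, showed one of the largest differences. It had 153 and 121 counts (237 and 209 CPM) in WT and 505 and 790 counts (571 and 573 CPM) in KO, and was 1.36 ± 0.11 higher on the log2 scale (edgeR adjusted p = 2.73e-33). Rpsa, also known as the laminin receptor and needed to mature the small subunit, was 0.90 ± 0.09 higher (edgeR adjusted p = 1.02e-19), with 433 and 375 CPM in WT against 799 and 720 CPM in KO. Rps3, which also serves in DNA repair, was 0.44 ± 0.10 higher, and Rps6, the classical substrate of S6 kinases, 0.63 ± 0.11. Rps14 and Rps19, genes whose loss impairs red cell formation in humans, were 0.33 ± 0.12 and 0.80 ± 0.14 higher.

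Of the large subunit, Rpl3, which lies near the catalytic centre, had 229 and 180 CPM in WT and 491 and 477 CPM in KO, a log2 difference of 1.24 ± 0.11 (edgeR adjusted p = 1.3e-25). Rpl5 and Rpl11, which bind the 5S ribosomal RNA and restrain Mdm2 when ribosome assembly fails, were 0.71 ± 0.12 and 0.63 ± 0.13 higher. Rpl13a, known for a second role in silencing inflammatory mRNAs, was 0.81 ± 0.13 higher. Of the paralog pairs, Rpl36a was 1.23 ± 0.21 higher and Rpl36al 0.59 ± 0.28, the latter without passing the test (edgeR adjusted p = 0.13). Rps27l, a p53 target, with 9 and 8 counts in WT against 31 and 55 in KO, was 1.44 ± 0.35 higher (edgeR adjusted p = 0.000531).

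A minority did not pass the test. Rps9, the most abundant member per length, had 739 and 644 CPM in WT and 709 and 753 CPM in KO, a log2 difference of 0.08 ± 0.09 that did not pass the test (edgeR adjusted p = 0.59). The values of the groups overlapped, as they did for Rpl9, with 376 and 302 CPM in WT and 380 and 345 CPM in KO (0.08 ± 0.11). Rpl31 had 207 and 200 CPM in WT and 202 and 249 CPM in KO (0.17 ± 0.12). With Rpl7l1 at 0.13 ± 0.22 and Rpl37 at 0.24 ± 0.14, these were among 12 of the 77 that did not pass the test. This depended on the scaling. With library size alone, Rps9, Rpl9, Rpl31 and Rpl37 were 0.37, 0.37, 0.46 and 0.52 higher in KO and passed it. Over the 77 members, the SD of the log2 differences was 0.31 against a median SE of 0.13, and 31 of 77 lay more than 2 SE from the members' median, 13 above and 18 below. The 1 member called lower, Rps4l, a sparsely counted relative of Rps4x, held 3 and 8 counts in WT against 3 and 2 in KO, and its call was lost under DESeq2 (adjusted p = 0.349).

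**Figure D2:**
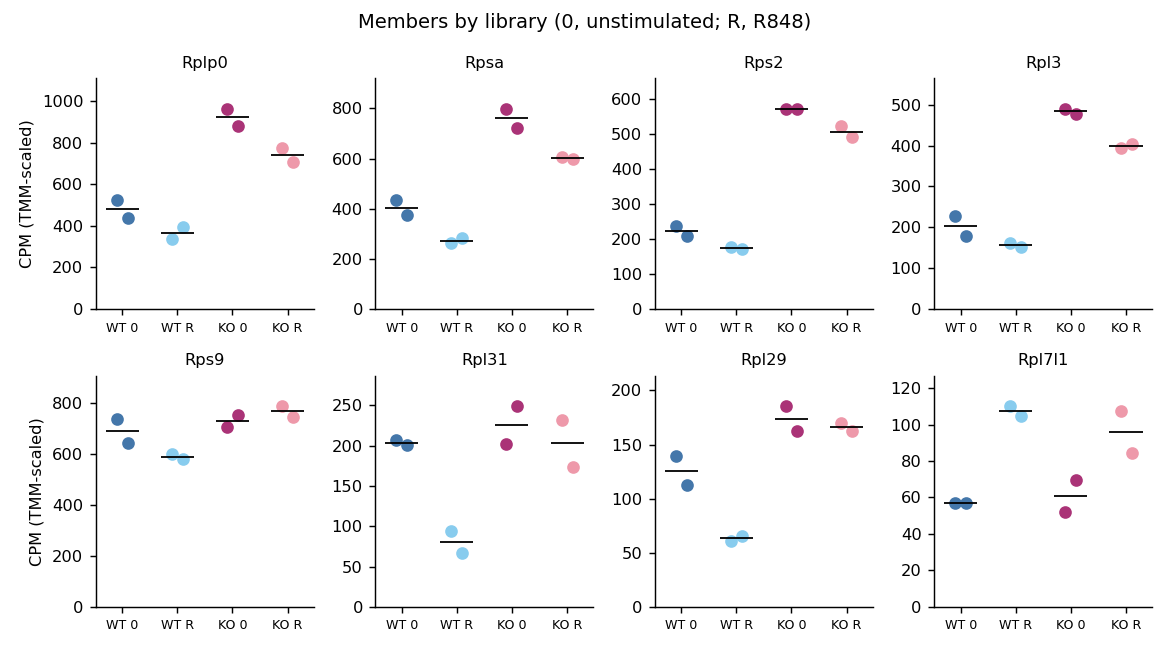
Level of 8 ribosomal protein genes in each library, in TMM-scaled CPM (points) with the group mean (line), for WT and KO neutrophils without stimulation (0) and after R848 (R). Rplp0, Rpsa, Rps2 and Rpl3 are higher in every KO library than in every WT library, whereas Rps9 overlaps between unstimulated WT and KO, Rpl31 and Rpl29 are lowest in WT after R848, and Rpl7l1 is higher after R848 in both genotypes.

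The markers of other cells differed between the genotypes along with these genes. Their counts stand beside 9.55% of all genes higher and 14.4% lower in unstimulated KO. Of 9 erythroid markers in the table, 6 were tested and 5 were higher in unstimulated KO. Their summed level was 95.5 ± 19.4 CPM in WT and 1010 ± 48.1 CPM in KO (SD, n = 2), with the globins Hba-a1, Hbb-bs and Hbb-bt at 0 counts in all libraries. All 7 monocyte markers were higher, from 493 ± 46.7 to 1183 ± 20.6 CPM in sum, while the sum of 7 neutrophil precursor markers was 1694 ± 55.3 CPM in WT and 1510 ± 49.6 CPM in KO. Of these 7 precursor markers 4 were lower in KO. Stromal or endothelial markers summed to 107 ± 16.0 CPM in WT and 270 ± 31.9 CPM in KO, with 1 of 3 tested called higher. T or NK cell markers went the other way, at 35.4 ± 7.31 CPM in WT and 19.1 ± 1.28 CPM in KO. Of these, 1 of 3 tested was called lower. The part of these cells in the result was not tested. B cell markers summed to at most 17.6 CPM in any library.

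The same comparison after R848 gave differences in the same direction. Here 74 of 84 members were higher in KO and 0 lower at an FDR below 0.1 by edgeR, against 9.46% and 7.81% of all genes tested. Of the 84, 1 was lower at an unadjusted p below 0.05, against 10.3% of all genes, and DESeq2 also called 0 lower. The groups' CPM did not overlap for 78 members that were higher, against 30.3% of all genes. Of the 84, 80 were above 0, against 54.1% of all genes, as were 76 of the 77 with adequate counts, with a median log2 difference of 0.82 against -0.0076 in the other genes and 0.21 in the other genes with short transcripts. The median was 0.86 for large and 0.82 for small subunit genes. A difference over 2-fold was reached by 24 members against 7.02% of all genes, compared with 10 members against 6.46% in unstimulated cells. This order of the 2 conditions depended on the scaling. Relative to all genes, the members' median was 0.79 higher in unstimulated cells and 0.82 after R848 (0.76 to 0.88 over 26 settings). With TMM factors taken without the members, 74 members were called higher in unstimulated cells and 73 after R848, and after thinning of the libraries to equal depth 70 and 63. The split of all calls after R848, 1159 higher and 957 lower, was 1028 and 1262 without the members and 1870 and 417 with library size alone.

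Rps2 again stood out, with 177 and 172 CPM in the WT libraries and 523 and 491 CPM in the KO libraries, a log2 difference of 1.54 ± 0.12 (edgeR adjusted p = 2.35e-35). Rplp1 had 165 and 147 CPM in WT and 444 and 414 CPM in KO (1.46 ± 0.13, edgeR adjusted p = 7.28e-29). Rpsa had 265 and 282 CPM in WT and 607 and 596 CPM in KO (1.14 ± 0.11, edgeR adjusted p = 1.55e-24), and Rpl3 161 and 152 CPM in WT and 394 and 404 CPM in KO (1.35 ± 0.13, edgeR adjusted p = 3.39e-24). For each of these 4 genes, the lowest KO library was more than 2-fold above the highest WT library. Rplp0 was 1.01 ± 0.10 higher, Rplp2 0.97 ± 0.14, Rpl5 0.85 ± 0.13, Rpl11 0.95 ± 0.14, Rpl13a 1.01 ± 0.14, Rps3 0.60 ± 0.11, Rps6 0.69 ± 0.12, Rps14 0.54 ± 0.13 and Rps19 0.87 ± 0.15.

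Of the 12 members that did not pass the test in unstimulated cells, 10 were higher in KO after R848. Rps9 was 0.38 ± 0.09 higher (edgeR adjusted p = 0.000381), Rpl9 0.53 ± 0.11 and Rpl31 1.35 ± 0.17. The call of Rps9 was lost under DESeq2 (adjusted p = 0.135) and without the first KO library after R848 (edgeR adjusted p = 0.205). The 3 members of adequate count that did not pass were Rpl7l1 (-0.15 ± 0.18), Rpl37a (0.30, edgeR adjusted p = 0.221) and Rpl39 (0.38 ± 0.20). Rpl39 had 83.6 and 53.1 CPM in WT and 91.5 and 83.6 CPM in KO. Across the 77 members, the difference in unstimulated cells and that after R848, which share no library, were correlated with Pearson's r = 0.513 and Spearman's rho = 0.472. This is a description across genes, which are not independent replicates and share the libraries' depth and scaling.

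**Figure D3:**
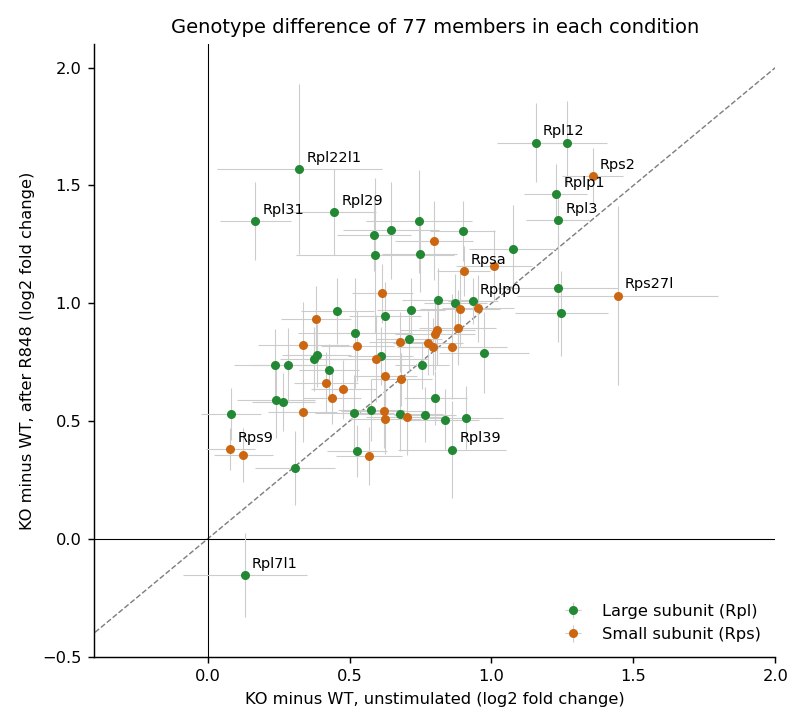
Log2 fold change of KO over WT for 77 ribosomal protein genes with at least 10 counts on average, in unstimulated cells (horizontal) and after R848 (vertical), with bars of 1 SE and the line of equal values dashed. All 77 lie to the right of 0 and 76 lie above 0, and Rpl31, Rpl29 and Rpl22l1 are far above the dashed line. Rpl22l1 had 12 and 3 counts in WT after R848. Its difference of response, 1.25 ± 0.48, did not pass the test (edgeR adjusted p = 0.16).

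Erythroid markers were again higher in KO, 6 of 6 tested, at 1258 ± 22.1 CPM against 44.5 ± 20.6 CPM in WT (SD, n = 2), and 4 of 7 monocyte markers were higher, with a sum of 1324 ± 38.5 CPM against 914 ± 106 CPM. Of the precursor markers 5 of 7 were lower in KO and 1 was higher. Of all genes tested, 9.46% were higher and 7.81% lower. The part of these cells in the result was not tested.

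Because many ribosomal protein genes have processed copies elsewhere in the genome, the members were also divided by how much of their transcripts is shared with other genes. In the 7 members with under 10% of shared 50-base words (Rpl22, Rpl7l1, Rpl8, Rps15a, Rps20 and Rps3 among them), 6 were higher in unstimulated KO, with a median of 0.75, and 6 after R848, with a median of 0.98. Among the 43 members with 50% or more shared, 37 and 43 were higher, with medians of 0.68 and 0.85. In the 27 between, 22 and 25 were higher, with medians of 0.61 and 0.78. In response to R848, 2 of the 7, 13 of the 27 and 24 of the 43 were lower in WT, with medians of -0.26, -0.32 and -0.36. In KO these were 2, 12 and 10, with medians of -0.13, -0.23 and -0.14. Of all genes tested, 9.55% were higher in unstimulated KO and 9.46% in KO after R848. The shares of all genes lower in response to R848 were 16% in WT and 15.9% in KO.

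The second question was how the members responded to R848 within each genotype. In WT neutrophils, 39 of 84 members were lower and 1 higher after R848 at an FDR below 0.1 by edgeR, against 16% and 13.5% of all genes tested. Of the 84, 49 were lower without overlap in CPM, against 31.3% of all genes. The median log2 fold change of the 77 members with adequate counts was -0.32, against -0.068 in the other genes and -0.14 in the other genes with short transcripts. It was -0.39 in large and -0.27 in small subunit genes, with 27 and 12 called lower. In KO neutrophils, 24 members were lower and 2 higher, against 15.9% and 19.2% of all genes, and 47 were lower without overlap against 31.7%. The median was -0.16, against 0.084 in the other genes and 0.083 in those with short transcripts.

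Markers of other cells also changed with R848. Their counts stand beside the shares of all genes: 16% lower and 13.5% higher in WT, and 15.9% and 19.2% in KO. A call of 1 marker in a list this short cannot be set apart from these shares. The sum of the 7 neutrophil precursor markers was 1694 ± 55.3 CPM in unstimulated WT and 611 ± 41.0 CPM after R848, with 5 called lower, and it was 1510 ± 49.6 and 550 ± 31.3 CPM in KO, with 6 called lower (SD, n = 2). Stromal or endothelial markers summed to 107 ± 16.0 and then 8.51 ± 2.76 CPM in WT and to 270 ± 31.9 and then 14.3 ± 2.22 CPM in KO, with 1 of 3 tested called lower in each. Of the monocyte markers 4 of 7 were lower and 1 higher in WT, and 5 and 1 in KO, although their sum was higher after R848 in both genotypes. Of the 6 erythroid markers tested, 2 were lower in WT and 4 higher in KO. The summed level of T or NK cell markers had a mean of 35.4 CPM in unstimulated WT and 10.9 CPM after R848, and of 19.1 and then 6.96 CPM in KO, without overlap between the libraries of either genotype, with 1 of 3 tested called lower in each. The part of these cells in the members' fall was not tested.

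**Figure D4:**
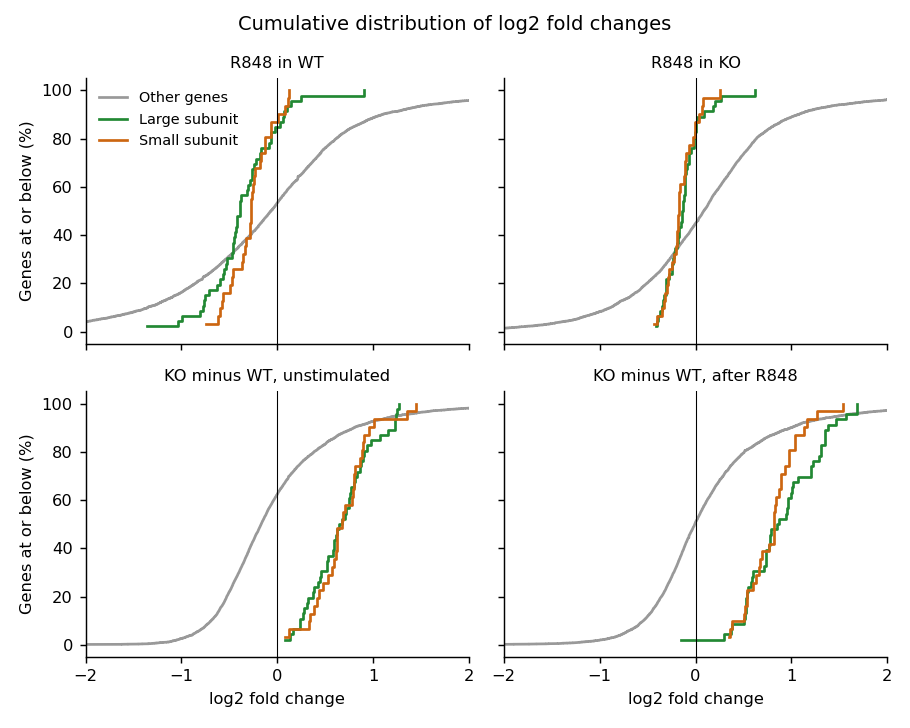
Cumulative share of genes by log2 fold change in 4 comparisons, for 46 large subunit, 31 small subunit and 6835 other genes with at least 10 counts on average (axis shown from -2 to 2). The ribosomal protein curves lie left of 0 for most members after R848 in both genotypes, and right of the other genes in both comparisons of KO with WT, where their medians are 0.68 and 0.82.

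The fall was small in size. By edgeR, 2 members in WT and 0 in KO fell by more than 2-fold at an FDR below 0.1, against 10.8% and 8.84% of all genes. In KO, 28 members were lower at an unadjusted p below 0.05, against 17.1% of all genes, and DESeq2 called 12 members lower without the fold limit. How many members passed the test also depended on the scaling between libraries, which set the median of all genes anywhere from -0.38 to 0.066 in WT and from -0.30 to 0.087 in KO on the log2 scale. Over 26 analysis settings, between 11 and 64 members were called lower in WT and between 11 and 72 in KO. The median of the members lay below that of all genes in every one of these settings, by 0.21 to 0.33 in WT and by 0.17 to 0.30 in KO, and the distance in the main analysis was -0.22 in each genotype. With library size alone the split of all calls in WT was 1075 higher and 3127 lower, against 1657 and 1964 in the main analysis.

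**Figure D5:**
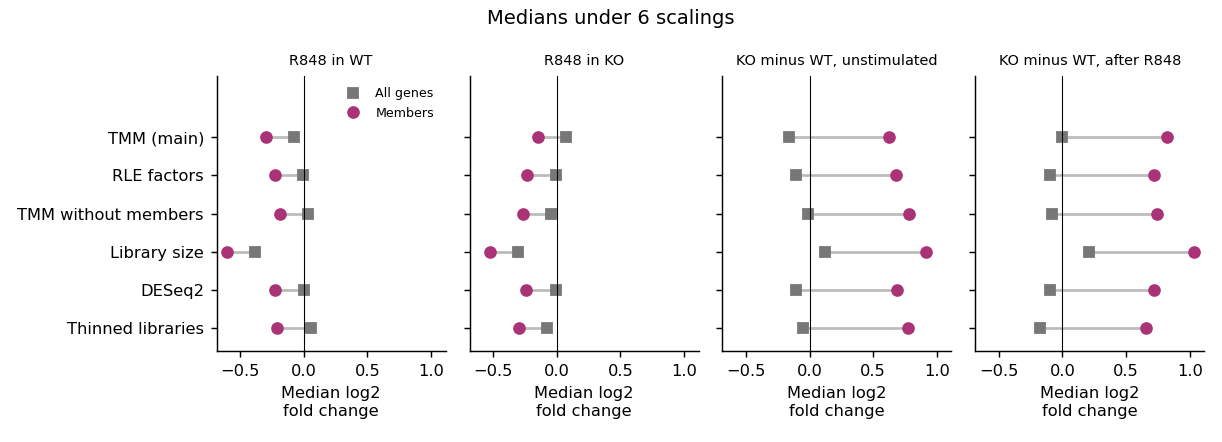
Median log2 fold change of the 84 ribosomal protein genes (circles) and of all genes with at least 10 counts on average (squares) under 6 ways of scaling the libraries, in 4 comparisons. The circles move with the squares, and in the main analysis their distance is -0.22 for R848 in each genotype and 0.79 and 0.82 for KO minus WT.

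Among named members, Rpsa fell by 0.56 ± 0.12 in WT (edgeR adjusted p = 1.79e-05), from 433 and 375 CPM to 265 and 282 CPM, and by 0.33 ± 0.08 in KO (edgeR adjusted p = 0.000312), from 799 and 720 CPM to 607 and 596 CPM. Its groups did not overlap in either genotype. Rplp0 fell by 0.39 ± 0.11 in WT and by 0.31 ± 0.08 in KO (edgeR adjusted p = 0.00233 and 0.000385), but in WT the call was lost without the first R848 library, where the change was -0.14. Rps4x, the X-linked small subunit protein, fell by 0.59 ± 0.14 and by 0.44 ± 0.09 (edgeR adjusted p = 0.000193 and 2.66e-05). Rps12 fell by 0.62 ± 0.14 in WT, from 277 and 266 CPM to 177 and 175 CPM, and by 0.20 ± 0.09 in KO, where it passed narrowly (edgeR adjusted p = 0.0992). Rps15 fell by 0.41 ± 0.11 in KO (edgeR adjusted p = 0.00114), with a value of -0.29 ± 0.16 in WT that did not pass.

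Rps6, whose phosphorylation by S6 kinases follows growth signals, had values of -0.07 ± 0.13 in WT and -0.00 ± 0.09 in KO. Rpl10, a late-joining large subunit protein, had 0.03 ± 0.12 and -0.12 ± 0.09. Neither passed the test in either genotype. Rpl7l1 was the 1 member called higher in both. It had 57.2 and 57.0 CPM in unstimulated WT and 110 and 104 CPM after R848, a rise of 0.91 ± 0.22 (edgeR adjusted p = 0.000391), and 52.0 and 69.7 CPM against 108 and 84.6 CPM in KO, a rise of 0.62 ± 0.17 (edgeR adjusted p = 0.00102). The rise in KO did not pass the test with library size alone (0.24), under DESeq2 or without the first KO library after R848 (0.29). The other call, Rpl37 in KO (0.26 ± 0.12), turned to -0.12 with library size alone.

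The third question was whether the response to R848 differed between the genotypes, tested as the difference of the log2 fold changes. The members' fold changes in WT and in KO, which share no library, had a Pearson's r of 0.236 and a Spearman's rho of 0.0686 across 77 genes, given as a description. At an FDR below 0.1, 5 of 84 members had a higher response in KO and 0 a lower one by edgeR, against 3.45% and 1.26% of all genes. Of the 84, 1 had a lower response at an unadjusted p below 0.05, against 3.32% of all genes, and DESeq2 called 1 higher and 0 lower. With other scalings 1 to 5 members had a higher and 0 to 3 a lower response, and with TMM factors taken without the members the split of all calls was 107 higher and 297 lower against 423 and 154. The members' median difference lay within 0.088 of that of all genes in every setting.

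The 5 members were Rpl31, Rpl29, Rpl41, Rpl9 and Rps10. Rpl31, a protein at the rim of the exit tunnel, had 134 and 116 counts in unstimulated WT and 46 and 38 after R848, against 179 and 343 in unstimulated KO and 261 and 189 after R848. It fell by 1.35 ± 0.18 in WT (edgeR adjusted p = 7.77e-13) and had -0.17 ± 0.11 in KO, a difference of 1.18 ± 0.21 (edgeR adjusted p = 7.03e-06). Without the second WT library after R848 the difference was 0.71 (edgeR adjusted p = 0.103), and without the first KO library after R848 it was 0.71 (edgeR adjusted p = 0.113). Of the bases in its exons, 40.0% overlap those of a neighbour, Tbc1d8, which had 204 and 184 counts in unstimulated WT and 113 and 163 after R848, against 191 and 258 and then 204 and 224 in KO. On the log2 scale Tbc1d8 fell by 0.28 ± 0.13 in WT (edgeR adjusted p = 0.0977) and had -0.04 ± 0.11 in KO, and its difference of response, 0.23 ± 0.17, did not pass the test (edgeR adjusted p = 0.617). The part of the overlap in the result for Rpl31 was not tested.

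Rpl29, a small basic protein of the large subunit, had 139 and 112 CPM in unstimulated WT and 61.1 and 65.5 CPM after R848, against 185 and 163 and then 170 and 163 CPM in KO. Its fall of 0.99 ± 0.21 in WT and its value of -0.05 ± 0.12 in KO differed by 0.94 ± 0.24 (edgeR adjusted p = 0.00755). The values were 0.70 ± 0.21 for Rpl41, 0.45 ± 0.15 for Rpl9 and 0.55 ± 0.19 for Rps10 (edgeR adjusted p = 0.0313, 0.0862 and 0.0887). Rpl31 was called under every scaling fitted for single genes, and it was the 1 member called with a higher response in KO under DESeq2, with TMM factors taken without the members and after thinning. The value of Rpl9 was -0.017 after thinning. Rpl29 was not called under DESeq2 (adjusted p = 0.3), with TMM factors taken without the members (edgeR adjusted p = 0.106) or after thinning (edgeR adjusted p = 0.312).

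The rest of the translation machinery was compared through fixed lists, whose counts stand beside the shares of all genes: 9.55% higher and 14.4% lower in unstimulated KO, 9.46% and 7.81% after R848, and, in response to R848, 13.5% higher and 16% lower in WT and 19.2% and 15.9% in KO. Among cytosolic ribosomal proteins with other symbols, Gnb2l1, which encodes the scaffold Rack1, was 1.14 higher in unstimulated KO (edgeR adjusted p = 1.31e-22), with 145 and 124 counts in WT and 405 and 698 in KO. After R848, Gnb2l1 was 1.11 ± 0.12 higher in KO and Fau 0.24 ± 0.10 (edgeR adjusted p = 7.81e-18 and 0.0892), while Fau had -0.22 ± 0.10 in unstimulated cells, which did not pass. Of 8 elongation and poly(A) factors, 6 were higher in unstimulated KO, with a median of 0.75. Eef1a1, which delivers aminoacyl-tRNA, was 0.79 ± 0.07 higher, and Eef1g, a subunit of its exchange factor, 1.60 ± 0.15. After R848, 5 of 8 were higher, with a median of 0.62.

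Of 28 initiation factors tested, 16 were higher in unstimulated KO and 2 lower, among them Eif3b (1.36 ± 0.20) and Eif5 (-0.74 ± 0.12). After R848, 5 were higher in KO than in WT and 3 lower, with a median of 0.20. In response to R848, 7 rose and 3 fell in WT, with a median of 0.34. In KO, 6 rose and 5 fell, near the shares of all genes, with a median of -0.15. The response was lower in KO for 6 factors by edgeR, against 1.26% of all genes. That share moved with the scaling, from 154 genes in the main analysis to 297 with TMM factors taken without the members. Eif4a1, the helicase that opens mRNA leaders, rose by 1.37 ± 0.13 in WT (edgeR adjusted p = 2.23e-26), from 122 and 102 counts to 263 and 235, and its response was 1.08 lower in KO (edgeR adjusted p = 4.47e-09). Eif4g2 rose by 1.10 ± 0.09 in WT and by 0.70 ± 0.08 in KO.

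Of 77 mitochondrial ribosomal proteins, 17 were higher in unstimulated KO, with a median of 0.52 against 0.63 in the 84 cytosolic members, and 9 were higher and 1 lower after R848, the former near the share of all genes. Many of these genes had low counts. Mrps5, for example, was listed at 0 in both unstimulated WT libraries and had 20 and 25 counts in KO. Of 18 regulators of ribosomal protein mRNA translation, 1 was higher and 2 were lower in unstimulated KO. The first was Larp1, which binds the TOP start, at 0.93 ± 0.20 (edgeR adjusted p = 5.53e-05), and Rps6ka1, a kinase of Rps6, was 0.66 ± 0.09 lower. Of 18 members tested whose human genes are mutated in Diamond-Blackfan anaemia, a failure of red cell formation, 15 were higher in unstimulated KO and 17 after R848, beside 65 and 74 of all 84 members.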

How the data were processed

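Paired-end TruSeq libraries of total RNA were sequenced on a MiSeq. Per the study's methods and the submitters' processing notes, the authors checked reads with FastQC 0.11.7, trimmed adaptors with cutadapt 1.16, removed low-quality reads, mapped the rest to mm10 with STAR 2.5.3a and counted them on genes with HTSeq 0.6.1p1. The annotation and strand setting are not given in the sources used here. The deposited table holds raw counts per gene symbol. Between 87.0% and 89.5% of the reads that HTSeq tallied in each library lay on genes, and the HTSeq summary lines were left out. Reads that map to several places were listed at 0 in all libraries, so members with near-identical copies elsewhere may be undercounted.

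Genes with at least 1 count in at least 2 libraries were fitted in R 4.3.3 with edgeR 4.0.16 (TMM factors, 4 group means, robust quasi-likelihood test). Adjustment followed Benjamini and Hochberg over the 12254 genes fitted. The common biological coefficient of variation was 4.68%. CPM were TMM-scaled, except marker sums, which are scaled to the gene counts alone. A count of 3, taken as the floor of detection, was 2.55 to 5.33 CPM. The study's own tool, DESeq2, was run as an alternative (version 1.42.0), beside other scalings, filters, thinned libraries, separate models, a replicate block and the omission of each library. Lengths are GENCODE M21 transcripts of GRCm38, and figures used Python 3.11.15 with matplotlib 3.10.9. On simulated counts of 12254 genes, with 200 changed 2-fold, the fit recovered 148 for R848 in KO (8 false calls), 136 for KO minus WT after R848 (12 false) and 76 for the difference of response (4 false).

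The members and lists were chosen with earlier results of these data known. Members named in the text were the stalk genes and Rpsa, paralogs and partners, genes with known second roles, the 5 highest and lowest per length, and up to 4 per direction and comparison with the smallest p and at least 10 counts. Of each list, up to 2 called genes per direction were named. The remaining genes of the text were chosen after their values were seen: Rpl12 (in a plot only), Rpl14, Rpl26, Rpl30, Rpl37a and Rps10 among them. Some genes are not reported here.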

Additional observations from a re-analysis of the deposited data

Results flagged for a closer look

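The difference between the R848 responses of KO and WT neutrophils, tested as an interaction in edgeR with Benjamini-Hochberg adjustment, passed an FDR of 0.1 for 5 of 84 ribosomal protein genes, against 3.45% of all genes higher in KO, and for other genes of the lists. The values reported here are on the log2 scale (KO minus WT). Among ribosomal protein genes it was 1.18 for Rpl31, 0.94 for Rpl29, 0.70 for Rpl41, 0.55 for Rps10 and 0.45 for Rpl9. All 5 fell in WT, and none passed the test in KO, where Rpl9 had 0.18 and the other 4 had values from -0.17 to -0.01. Under DESeq2, with TMM factors taken without the members and after thinning, Rpl31 was the 1 of these 5 still called. The difference of response was 0.47 for Fau, which encodes a ubiquitin-like protein fused to Rps30. Of 28 initiation factors tested, 6 were called lower in KO, against 1.26% of all genes. The values were -1.08 for Eif4a1, -1.18 for Eif3a, -0.93 for Eif3b, -1.35 for Eif3g, -0.77 for Eif4g1 and -0.39 for Eif4g2, and Eif5a of the elongation factors had -0.47. Lower responses among all genes numbered 154 in the main analysis and 297 with TMM factors taken without the members. Calls of these factors under other scalings are not given here. The difference of response was 0.66 for Rps6ka1, 1.74 for Ddit4, an inhibitor of mTORC1, and 1.87 for Mrpl14 of the mitochondrial ribosome. Ddit4 had 6 and 13 counts in unstimulated KO and 51 and 36 after R848, and Mrpl14 had 9 and 20 and then 41 and 23. With 2 libraries per group no single library could be set apart from its group.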

How the results depend on the processing

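In KO against WT, the number of members called higher was within 1.5 times the main count under every alternative except the 2-fold limit (10 unstimulated, 24 after R848). Leaving out 1 library gave 59 to 75 members higher and 0 to 1 lower unstimulated, and 60 to 74 higher and 0 lower after R848. The 1 member called lower unstimulated became 0 under DESeq2, filterByExpr, library size, TMM factors without the members, thinning, separate models, an FDR of 0.05, the reference WT_Nostim library 2 and a minimum of 10 counts.

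The R848 counts moved with the scaling. In WT, the 39 members called lower became 13 under DESeq2, 25 with RLE factors, 64 with library size, 20 with TMM factors without the members, 21 after thinning, 16 with separate models and 2 over 2-fold. The 1 called higher became 2 with TMM factors without the members and 0 over 2-fold. In KO, the 24 called lower became 12 under DESeq2, 42 with filterByExpr, 45 with RLE factors, 72 with library size, 49 with TMM factors without the members, 43 after thinning and 0 over 2-fold. The 2 called higher became 1 with filterByExpr, RLE factors, TMM factors without the members, the replicate block and an FDR of 0.05, and 0 under DESeq2, library size, thinning and the 2-fold limit. The 5 higher responses in KO became 1 under DESeq2, 2 with RLE factors, 3 with library size, 1 with TMM factors without the members, 1 after thinning, 3 at an FDR of 0.05 and 1 over 2-fold. The lower responses became 2 with TMM factors without the members and 2 after thinning.

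Part of this follows from the library to which TMM scales the others. It was KO_R848 library 2 in the main analysis but a WT_Nostim library after thinning and without the members. Taking each library in turn as the reference (chosen after seeing the data), members called lower in WT numbered 18, 19, 19, 19, 21, 22, 36 and 39, the last pair with the KO_R848 references, with 1 or 2 higher. In KO they numbered 23 to 51 (51 and 50 with the WT_Nostim references, where 1 was higher). Higher responses numbered 1, 1, 2, 2, 2, 2, 5 and 5, and lower ones 2 and 3 with the WT_Nostim references and 0 with the others.

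The median difference of response, 0.16 in the main analysis, was -0.068 with TMM factors without the members, -0.11 after thinning, -0.068 and -0.086 with the WT_Nostim references, and ran from -0.15 to 0.27 when 1 library was left out, below 0 without WT_R848 replicate 1, KO_R848 replicate 1 or KO_R848 replicate 2 (-0.15, -0.11 and -0.026). Rpl9's response difference was -0.017 after thinning, and Rpl37 in KO was -0.12 with library size and -0.049 to 0.35 when 1 library was left out, the lowest without KO_R848 replicate 1.

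Leaving out 1 library gave 11 to 36 members lower and 1 to 2 higher in WT. The count fell to 18 without WT_Nostim 1, 11 without WT_R848 1, 22 without WT_R848 2 and 20 without either KO_R848 library. In KO it gave 11 to 54 lower and 0 to 2 higher, with 54 and 53 without WT_R848 1 or 2, 46 without KO_R848 1 and 11 without KO_Nostim 2. Responses numbered 0 to 5 higher and 0 to 2 lower. The cause of these moves was not tested beyond the change of reference.

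Without the 50 most abundant genes in the denominator, the members' share was 2.03% in unstimulated WT, 1.40% in WT after R848, 3.68% in unstimulated KO and 2.67% in KO after R848. With all genes in the denominator, leaving either library out of these groups in turn gave 1.40% to 1.52%, 0.924% to 0.991%, 2.80% to 2.84% and 1.90% to 1.99%.

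Replicate numbers did not pair the libraries (correlations of deviations from -0.019 to 0.021). A replicate block left 1 member higher after R848 in KO in place of 2 and moved all other counts of members by less than 1.5 times. For the 7 of 84 members under 10 counts on average, only large differences can pass the test at this depth.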
